A study of Mus musculus with 12 samples.

Results

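The genes described are 10 genes of the anterior primitive streak, the definitive endoderm and the node: the transcription factor genes Foxa1, Foxa2, Sox17, Hhex, Gsc and Noto, the secreted factor genes Cer1, Shh and Chrd, and the receptor gene Cxcr4. They were chosen by name, as the probe sets annotated to one of them alone, and each of the 10 had 1 such probe set among the 19938 genes that had a probe set of their own. All 10 lay at or above the filter on dim genes (a mean log2 level of 6.46), which 15950 genes passed. Cer1 lay below that level on 5 of the 6 knockdown-line arrays and on 0 of the 6 overexpression-line arrays, so it passed through the overexpression line.

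The RNA was from mouse embryoid bodies, which are clumps of embryonic stem (ES) cells left to differentiate, here in medium with serum. The ES cells of all 12 arrays were A2lox, of strain 129P2/OlaHsd. In the Geminin knockdown line, doxycycline (dox) at 0.5 µg/ml from day 0 induced microRNAs against the Geminin transcript, and 3 arrays with dox and 3 without dox were collected on day 4. In the Geminin overexpression line, the same dose from day 3 induced Geminin. Of this line, 2 arrays with dox and 2 without dox were collected on day 5 (replicates 1 and 2), and 1 with dox and 1 without dox on day 4 (replicate 3). Day 5 against day 4 in that line is therefore also replicates 1 and 2 against replicate 3, and these cannot be told apart. The labels name neither the promoter that drives the transgenes nor the number of clones behind a line. They do not say whether replicates were separate cultures. The p-values therefore reflect the spread between these arrays alone, and that spread may be technical. An embryoid body holds many cell types, and fewer cells of a type cannot be told apart from less RNA per cell.

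Definitive endoderm and the axial mesoderm of the node and notochord both arise at the anterior end of the primitive streak, where Nodal signalling is strong. Cells there pass through a state that expresses Eomes, Mixl1, Gsc and Foxa2, and then become either endoderm, with Sox17, Hhex, Cer1 and Cxcr4, or node and notochord, with Noto, Chrd and Shh. Several of the same genes, among them Sox17, Foxa2, Hhex and Cer1, are also used by the visceral endoderm, an extraembryonic layer that embryoid bodies form as well. Geminin is a nuclear protein that holds back the replication licensing factor Cdt1 and also binds chromatin and transcription regulators. The arrays address whether lowering or raising it changes how cells enter mesoderm and endoderm.

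The targeted gene followed its labels in every pair. The log2 level of Gmnn, which encodes Geminin, was 9.66, 9.74 and 9.63 with dox against 10.33, 10.15 and 10.05 without dox in the knockdown line. In the overexpression line it was 11.38 and 10.83 with dox against 10.29 and 10.15 without dox on day 5, and 11.04 against 10.35 on day 4. Gmnn itself was not called (limma adjusted p of 0.965 in the knockdown line and 0.922 in the overexpression line). The only gene called for dox in either line was Hprt, at a log2 difference of 3.81 ± 0.33 (SE) in the knockdown line and 3.44 ± 0.33 in the overexpression line. Any 2 arrays correlated at 0.965 to 0.993 over the 19938 genes with a probe set of their own. The arrays carry no detection calls, so a low level is not called absent here, and the level of one gene is not set against that of another. The streak gene T has no probe set of its own here and is not analysed here.

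No dox effect on these 10 genes passed the test, and their largest differences lay between the lines, between the days and between replicate numbers. Cxcr4, the receptor for the chemokine CXCL12 and a surface marker of definitive endoderm, differed most between the lines on day 4 among the 10. Its log2 level was 7.62, 7.15 and 7.49 with dox against 7.08, 7.07 and 7.34 without dox in the knockdown line. Overexpression-line levels were 10.33 and 9.94 with dox against 10.75 and 10.08 without dox on day 5, and 9.29 against 9.55 on day 4. Each of the 6 knockdown-line arrays lay below each of the 6 overexpression-line arrays. Without dox on day 4, Cxcr4 averaged 7.17 ± 0.15 (SD, n = 3) in the knockdown line against 9.55 on the single overexpression-line array, a log2 difference of -2.39 or 5.22-fold.

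Gsc, a homeobox repressor of the organizer, had a log2 level of 8.85, 6.78 and 8.30 with dox against 7.71, 6.80 and 7.38 without dox in the knockdown line. Overexpression-line levels were 9.58 and 8.06 with dox against 9.87 and 8.15 without dox on day 5, and 9.06 against 9.30 on day 4. The replicate 2 arrays were the lowest of every group that held one. The day 4 control difference, knockdown minus overexpression line, was -2.0 on the log2 scale, or 4-fold. Cer1 encodes a secreted antagonist of Nodal and BMP. Its log2 level was 6.90, 5.48 and 6.16 with dox against 6.0, 5.19 and 6.07 without dox in the knockdown line, and 9.37 and 7.80 with dox against 10.21 and 8.26 without dox on day 5 of the overexpression line. On day 4 of the overexpression line it was 7.63 with dox and 7.52 without dox, above all 6 knockdown-line arrays. The day 4 control difference was -1.76, against knockdown-line controls that all lay below the filter on dim genes, so no fold is given.

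Across the set, both overexpression-line arrays of day 4 lay above all 6 knockdown-line arrays for 4 of the 9 genes other than Cer1 (Foxa1, Hhex, Gsc and Cxcr4), against 8.11% of all tested genes. Cer1 did so too, but it passed the filter through that line and is not counted. They lay below all 6 for Shh alone, against 8.41% of genes. The remaining 4 genes overlapped between the lines on day 4. The difference without dox was also fitted, with both day 4 arrays of the overexpression line giving its baseline, a test added after these values were seen. It called Cxcr4 alone of the 9, at -2.39 ± 0.23 (SE, log2; limma adjusted p of 0.00566), where 0.307% of all genes were called. That call ended without either day 4 overexpression-line array (limma adjusted p of 0.388 without the control and 0.0802 without the dox array), with the size at -2.403 and -2.385. The fitted difference was -1.98 ± 0.72 for Gsc (limma adjusted p of 0.33), -0.98 ± 0.44 for Foxa2, -0.71 ± 0.17 for Foxa1 and -0.38 ± 0.15 for Hhex, none of them called. Marker lists of neighbouring cell types differed in the same fit. In the knockdown line, 15 of 17 genes of primitive streak and nascent mesoderm were lower (median log2 difference -1.37, 5 called). Of a wider list of definitive endoderm and anterior streak, 17 of 22 were lower (-0.54, 2 called), as were 17 of 20 BMP pathway genes (-0.56, 3 called). Higher were 19 of 23 genes of visceral and primitive endoderm (0.44) and 12 of 14 pluripotency genes (0.64), none called. Both day 4 overexpression-line arrays are of replicate 3, while the knockdown line has replicates 1 to 3.

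**Figure D1:**
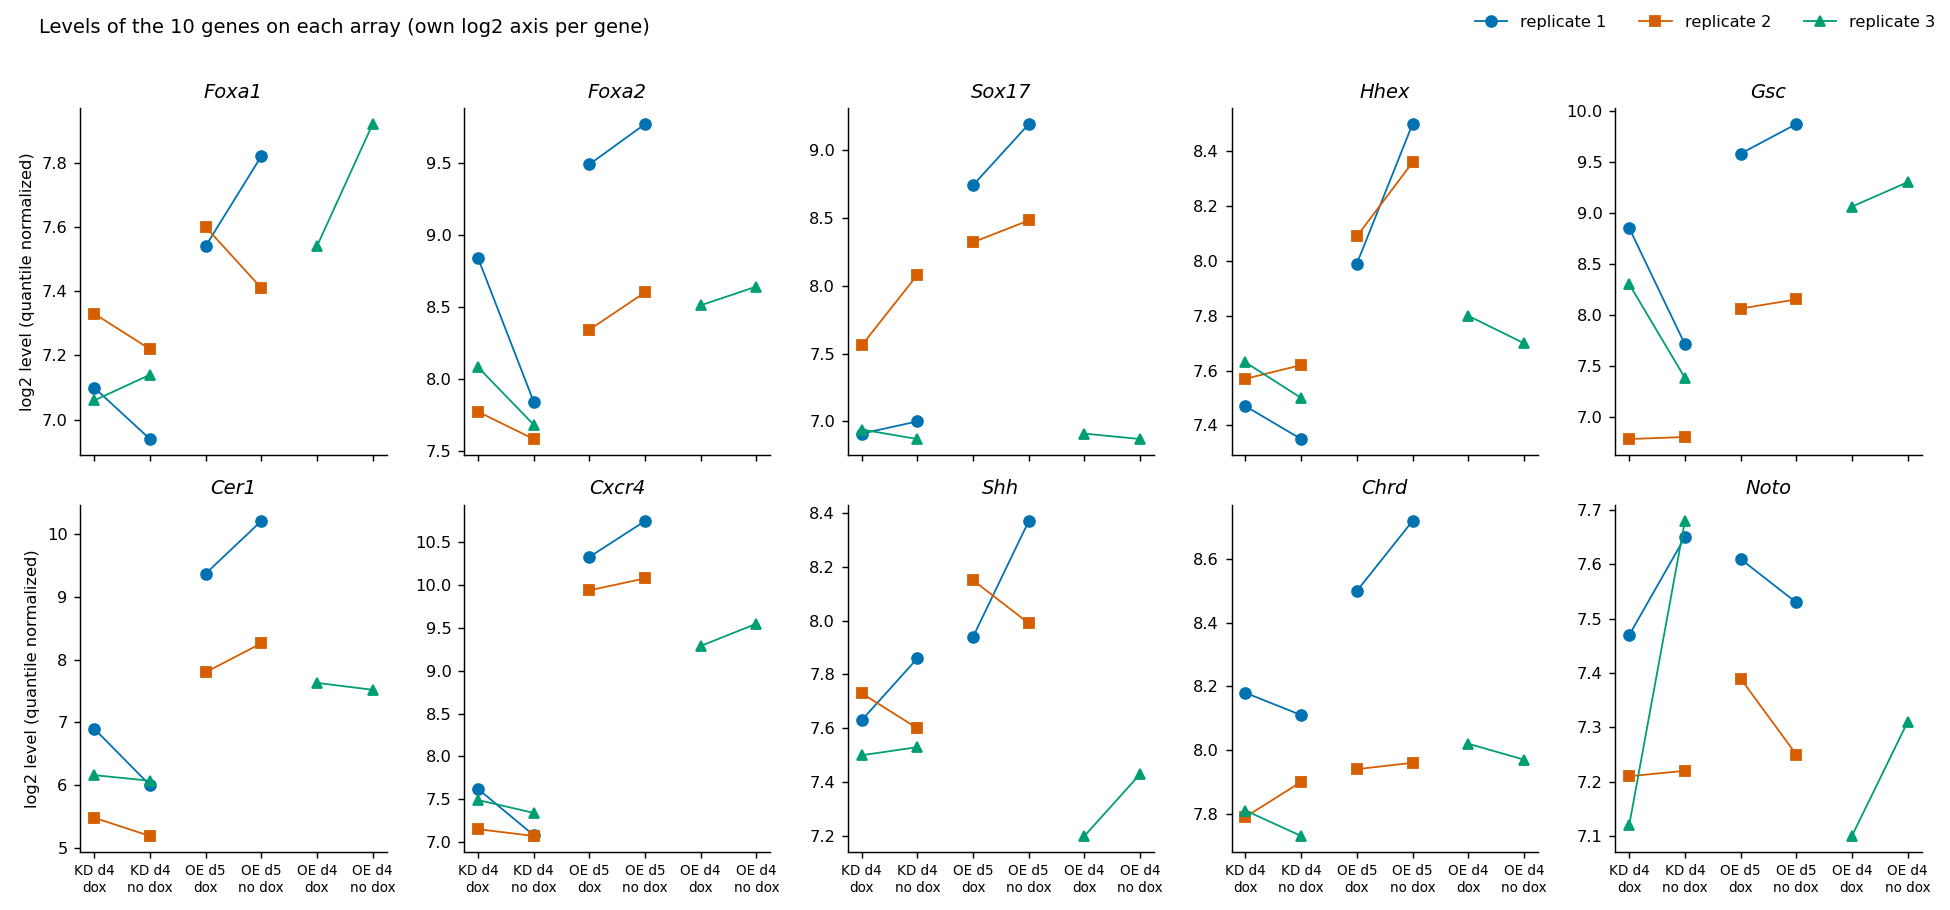
Log2 level of each of the 10 genes (y axis, log2 intensity after quantile normalization) on every array, by line (KD, knockdown; OE, overexpression), day and dox along the x axis, each gene on its own axis. Each point is 1 array, and lines join the arrays of 1 replicate number. The overexpression-line arrays of Cxcr4 all sit above its knockdown-line arrays, and the Gsc values of replicate 2 sit lowest in each group that has one.

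Where RefSeq (GRCm38.p6) had a promoter entry, the 250 bases before the transcription start were searched on both strands for 6 motifs of streak and endoderm factors. An entry was found for 8 of the 10 genes, all but Sox17 and Shh, in 10 windows. The motifs were the forkhead core TGTTTNC, the bicoid-type site TAATCC, the LIM-type homeodomain site TAATTA, the FOXH1 site TGTNNATT, the T-box site TNACACCT and the TCF/LEF site ATCAAAG. The promoters of Cer1, Cxcr4 and Gsc are shown because these genes differed most between the lines. They are written 5′ to 3′ on the minus strand, with matches in capitals.
Cer1: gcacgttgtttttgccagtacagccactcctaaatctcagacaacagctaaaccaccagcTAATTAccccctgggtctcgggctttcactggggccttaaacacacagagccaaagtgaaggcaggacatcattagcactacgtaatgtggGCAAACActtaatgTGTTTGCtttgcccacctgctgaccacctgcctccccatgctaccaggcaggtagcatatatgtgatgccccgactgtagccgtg
Cxcr4: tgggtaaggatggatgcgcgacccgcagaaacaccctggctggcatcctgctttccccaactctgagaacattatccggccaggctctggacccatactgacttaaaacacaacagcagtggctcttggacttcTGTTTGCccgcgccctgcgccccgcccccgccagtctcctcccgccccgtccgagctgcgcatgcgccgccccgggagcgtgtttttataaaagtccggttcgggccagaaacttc
Gsc: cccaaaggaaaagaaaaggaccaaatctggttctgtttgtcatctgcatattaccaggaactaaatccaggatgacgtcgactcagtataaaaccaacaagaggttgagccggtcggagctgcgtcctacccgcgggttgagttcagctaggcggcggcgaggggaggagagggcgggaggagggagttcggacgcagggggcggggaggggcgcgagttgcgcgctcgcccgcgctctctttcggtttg
The Cer1 window (chr4:82885152-82885401) held the LIM-type site TAATTA beginning 190 bases upstream of the start. It also held 2 forkhead matches, at 99 and 85 bases upstream, which face each other as GCAAACA and TGTTTGC. The Cxcr4 window (chr1:128592300-128592549) held 1 forkhead match at 116 bases upstream, and the Gsc window (chr12:104473237-104473486) held no match of the 6 motifs. Forkhead matches were also present in the windows of Foxa1 (141 bases upstream) and Noto (16 bases upstream), so 4 of the 8 genes had one. Of all 32851 windows, 17.8% held a forkhead match, 4.84% the LIM-type site, 6.25% the bicoid-type site, 10.9% the FOXH1 site, 2.68% the T-box site and 3.21% the TCF/LEF site. None of the motifs overlapped another in these windows. A match is a run of letters and does not show binding.

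In the knockdown line, dox called none of the 10 genes at an adjusted p under 0.05 (limma, Benjamini-Hochberg over all tested genes), where 0.00627% of all genes were called. At an unadjusted p under 0.05 the count was also 0, against 3.76% of genes. In a fit with a baseline per replicate number that count was 3, against 12.2% of genes. By size, 7 of the 10 were higher and 3 lower with dox, with a median log2 difference of 0.07 against 0.01 over all genes, of which 52.7% were higher. Foxa1, Hhex and Chrd, at 0.07, 0.06 and 0.01, turned to -0.04, -0.036 and -0.08 without quantile normalization, where 4 were higher and 6 lower. Exact two-sided permutation over the 6 arrays cannot go below a p of 0.1.

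Foxa2, a forkhead pioneer factor needed for the node and for foregut endoderm, had a log2 level of 8.84, 7.77 and 8.08 with dox against 7.84, 7.58 and 7.68 without dox in the knockdown line. It was higher with dox in all 3 replicate pairs, by 1.00, 0.19 and 0.40, but the groups overlapped, since replicate 2 with dox lay below replicate 1 without dox. The dox effect was 0.53 ± 0.36 (log2, SE; 1.44-fold; limma adjusted p of 0.965, exact permutation p of 0.2). Without the replicate 1 array with dox it was 0.22, with replicate 1 then among the controls alone. This fit has no replicate block, so leaving out 1 array puts the level of its replicate number into the dox effect. Cxcr4 and Cer1 also lay higher with dox in all 3 pairs. The pair differences of Cxcr4 were 0.53, 0.08 and 0.15 (dox effect 0.26 ± 0.19, 0.158 to 0.389 with 1 array left out) and those of Cer1 0.90, 0.29 and 0.09 (dox effect 0.42 ± 0.56, 0.065 to 0.773). Of all genes, 19.5% were higher with dox in all 3 pairs, so a count of 3 in 10 is not far from the background. That count includes Cer1, which lay below the filter on dim genes on every knockdown-line array but the replicate 1 array with dox.

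Gsc was higher with dox in pairs 1 and 3, by 1.14 and 0.93, and level in pair 2, at -0.01. Its dox effect was 0.68 ± 0.59 (log2, SE), the largest of the 10 and with the largest standard error, and the exact permutation p was 0.5. In the fit with a baseline per replicate number the standard error was 0.20. In the main fit the dox effect was 0.248 without the replicate 1 array with dox and 1.282 without the replicate 2 array with dox. Both values also hold the difference between replicate numbers, since the left-out number then stands among the controls alone. Noto, a homeobox gene of the node and notochord, was lower with dox in all 3 pairs, by -0.19, -0.01 and -0.56. Of all genes, 12.2% were lower in all 3. Its log2 level was 7.47, 7.21 and 7.12 with dox against 7.65, 7.22 and 7.68 without dox, and its dox effect was -0.25 ± 0.15 (limma unadjusted p of 0.135). No gene of the set had all dox arrays above all controls or all below them, against 4.97% and 3.25% of genes.

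The other genes of the set moved little in the knockdown line. Sox17, an HMG-box factor of endoderm, was at a log2 level of 6.91, 7.56 and 6.94 with dox against 7.0, 8.08 and 6.87 without dox, and its dox effect was -0.18 ± 0.32. That effect turned to 0.20 without the replicate 2 control, which was the highest of the 6 arrays. Replicate 2 then stands among the dox arrays alone, so its level enters that value. The pair differences were -0.08, -0.52 and 0.07. Hhex, a homeobox repressor of anterior endoderm, lay between 7.35 and 7.63 on all 6 arrays, and Foxa1, a forkhead relative of Foxa2, between 6.94 and 7.33. Shh, the hedgehog ligand of notochord and gut, and Chrd, a BMP antagonist of the node, had dox effects of -0.04 ± 0.13 and 0.01 ± 0.21. None of these groups separated.

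Marker lists of neighbouring cell types were read beside these values, and no gene of any list was called for dox in the knockdown line. All 23 tested genes of the visceral and primitive endoderm list were lower with dox, with a median log2 difference of -0.31 (22 of them after median centring). Its summed signal ran over 16640 to 34760 with dox and 21460 to 44510 without dox. Of the defining markers in that list, Sox7 had a log2 level of 7.59, 9.40 and 7.73 with dox against 7.95, 10.30 and 8.13 without dox, while Afp and Ttr stayed between 6.82 and 8.21 on these arrays. Of 14 pluripotency genes, 13 were lower with dox, with a median of -0.34. Their part in the values of Foxa2, Sox17, Hhex and Cer1 was not tested. Of the 22 tested genes on a wider list of definitive endoderm and anterior streak, 13 were higher and 9 lower with dox, with a median of 0.17. The largest were Mixl1 at 0.91 ± 0.77, Eomes at 0.88 ± 0.56 and Lhx1 at 0.78 ± 0.68, all transcription factors of the streak. The median was 0.19 over 17 genes of primitive streak and nascent mesoderm, 0.009 over 13 of node and notochord (-0.06 without quantile normalization), -0.13 over 10 of neural tube and floor plate, -0.03 over 14 of haemangioblast and endothelium and -0.08 over 8 of feeder fibroblasts.

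In the overexpression line, dox again called none of the 10 genes (limma), where 0.00627% of all genes were called. The count at an unadjusted p under 0.05 was 0 as well, against 0.934% of genes. In the fit with a baseline per replicate number that count was 1, against 3.59% of genes. Here 9 of the 10 were lower with dox and 1, Noto, was higher by 0.006. The median log2 difference was -0.20 against 0.01 over all genes, of which 56.7% were higher. The direction depended on single arrays for several of the 9. Without the day 5 replicate 1 control, Foxa2, Gsc, Cer1, Chrd and Sox17 turned higher with dox, at 0.12, 0.28, 0.23, 0.17 and 0.04. Without the day 5 replicate 2 array with dox, Foxa2, Gsc, Cer1 and Chrd turned higher, at 0.12, 0.22, 0.12 and 0.12. Leaving out either array sets replicates 1 and 2 against each other in this line.

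Within pairs, Foxa2, Gsc and Cxcr4 were lower with dox in all 3, as were 10.5% of genes. Foxa2 had a log2 level of 9.49 and 8.34 with dox against 9.77 and 8.60 without dox on day 5, and 8.51 against 8.64 on day 4, and its pair differences were -0.28, -0.26 and -0.13. The dox effect was -0.23 ± 0.36. The pair differences of Cxcr4 were -0.41, -0.14 and -0.26 (dox effect -0.27 ± 0.19), and those of Gsc were -0.29, -0.09 and -0.24 (dox effect -0.21 ± 0.59). All of these groups overlapped on day 5. On day 5, Gsc and Foxa2 each differed more between the 2 replicates of a group than with dox in either pair.

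Hhex had a log2 level of 7.99 and 8.09 with dox against 8.50 and 8.36 without dox on day 5, and 7.80 against 7.70 on day 4. Both day 5 dox arrays lay below both controls, while the day 4 pair went the other way by 0.10. Its dox effect was -0.23 ± 0.12 with an unadjusted limma p of 0.0855, the lowest of the 10, and an adjusted p of 1. Cer1 showed the same split between days, with pair differences of -0.85 and -0.46 on day 5 and 0.11 on day 4. Exact permutation within day cannot go below a p of 0.167 in this line, and the values for the 10 genes ran from 0.333 to 1.

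Of the remaining genes, 4 differed by less than 0.2 in the overexpression line. The dox effects were -0.19 ± 0.32 for Sox17, -0.17 ± 0.13 for Shh, -0.16 ± 0.13 for Foxa1 and -0.06 ± 0.21 for Chrd. No gene of any marker list was called. The medians were -0.10 for the 22 genes of definitive endoderm and anterior streak, of which 13 were lower, and 0.02 for the 23 genes of visceral and primitive endoderm, of which 8 were lower. They were 0.14 for pluripotency (12 of 14 higher), 0.02 for primitive streak and nascent mesoderm, -0.01 for node and notochord, -0.07 for haemangioblast and endothelium, -0.07 for neural tube and floor plate and 0.02 for feeder fibroblasts.

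**Figure D2:**
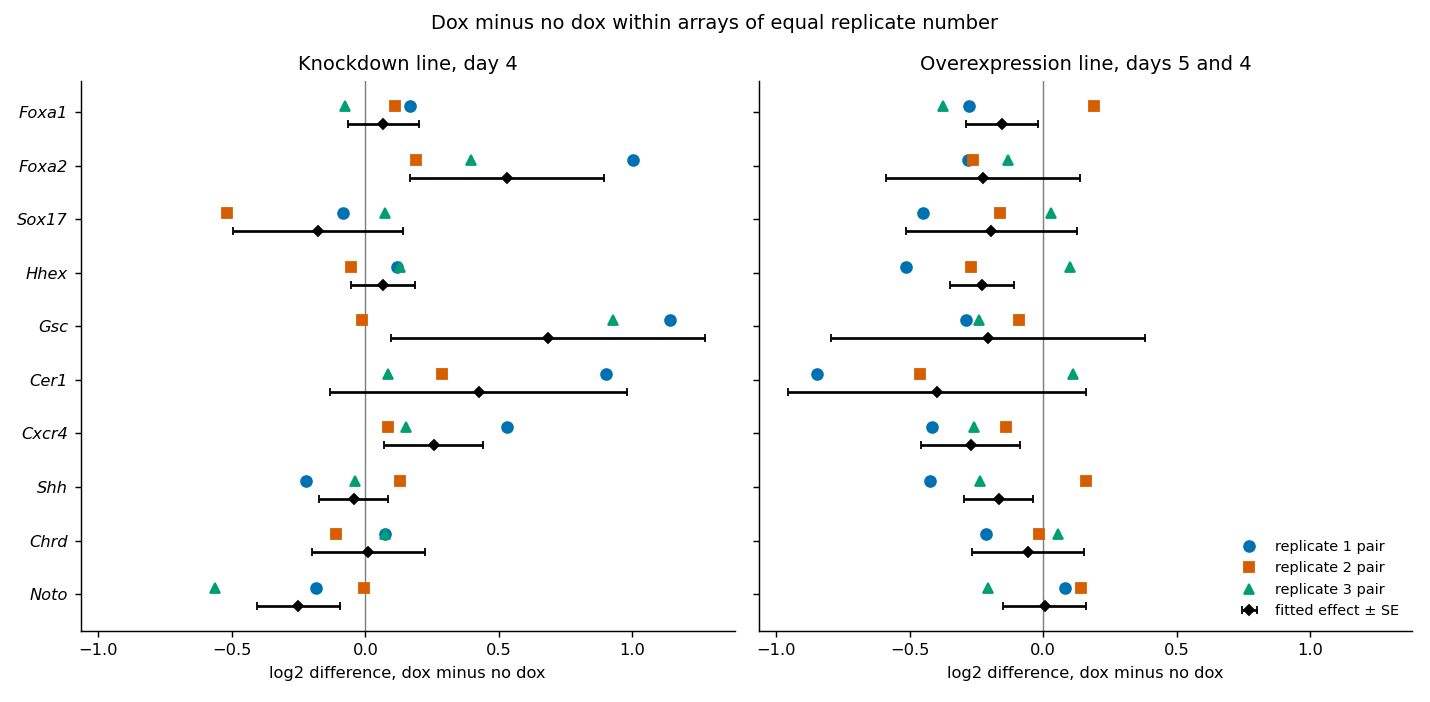
Log2 difference of dox minus no dox (x axis) for each of the 10 genes down the page, with the knockdown line to the left of the overexpression line. Coloured points are the replicate pairs, and black diamonds with bars are the fitted dox effects with their standard errors. Foxa2 and Cxcr4 have all 3 knockdown pairs above 0 and all 3 overexpression pairs below 0.

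The dox effects of the lines were set against each other directly, as knockdown minus overexpression. None of the 10 genes was called (limma), where 0% of all genes were called. At an unadjusted p under 0.05 the count was 0, against 2.13% of genes. In the fit with a baseline per replicate number that count was 4, against 8.68% of genes. Foxa2 and Cxcr4 were higher in all 3 knockdown pairs and lower in all 3 overexpression pairs, a pattern shared by 2.39% of genes. The difference was 0.76 ± 0.51 for Foxa2 (limma unadjusted p of 0.17) and 0.53 ± 0.26 for Cxcr4 (limma unadjusted p of 0.0713). It was 0.89 ± 0.83 for Gsc and 0.82 ± 0.79 for Cer1, and the adjusted p was 0.9995 for each of the 10. Of the 10 genes, 9 had a positive difference, and Noto, at -0.26 ± 0.22, had a negative one. Without quantile normalization 6 were positive and 4 negative, and the median was 0.13 against 0.26 with it.

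Day 5 against day 4 in the overexpression line called 1 of the 10 genes, the ligand gene Shh. It had a log2 level of 7.94 and 8.15 with dox and 8.37 and 7.99 without dox on day 5, against 7.20 with dox and 7.43 without dox on day 4. All 4 day 5 arrays lay above both day 4 arrays. The day effect was 0.80 ± 0.14 (SE, log2), or 1.74-fold, with a limma adjusted p of 0.0402, where 0.558% of all genes were called. The call ended without either day 4 array (limma adjusted p of 0.61 without the control and 0.702 without the dox array), without the day 5 replicate 1 control (0.0951), without either day 5 replicate 2 array (0.0534 without the control and 0.113 without the dox array), and without any of 4 knockdown-line arrays, the 3 with dox and the replicate 1 control (0.0503 to 0.064). Over these left-out arrays the size stayed within 0.725 to 0.886.

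Sox17 differed most in size. Its log2 level was 8.74 and 8.32 with dox and 9.19 and 8.48 without dox on day 5, against 6.91 and 6.87 on day 4, with no overlap. The day effect was 1.79 ± 0.34, or 3.47-fold, with a limma adjusted p of 0.0514. That lay just over the threshold, and it passed in 2 left-out-array fits, without the knockdown-line replicate 2 control (0.022) and without the replicate 3 control (0.0454). It also passed without quantile normalization (0.0469), after median centring (0.0389), with a pseudocount of 32 (0.044) and with array weights (0.00106). Cxcr4 (0.85 ± 0.20, limma adjusted p of 0.0868), Hhex (0.49 ± 0.13, adjusted p of 0.122) and Cer1 (1.33 ± 0.59, adjusted p of 0.343) were also higher on day 5 in all 4 arrays. In all, 5 of the 10 genes lay entirely higher on day 5, against 15.4% of genes, and 5 had an unadjusted p under 0.05 in that direction, against 7.52%. They were the same 5 genes, Shh, Sox17, Cxcr4, Hhex and Cer1.

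The other 5 genes overlapped between the days. The day effect was 0.48 ± 0.38 for Foxa2, 0.29 ± 0.22 for Chrd, 0.24 ± 0.16 for Noto, -0.14 ± 0.14 for Foxa1 and -0.26 ± 0.62 for Gsc. Of the definitive endoderm and anterior streak list, 3 of 22 tested genes were called higher on day 5, among them Dkk1, a Wnt antagonist of anterior endoderm and mesoderm, at 1.28 ± 0.20 (limma adjusted p of 0.0346). Bmp2, a BMP ligand, was called at 1.05 ± 0.19 (limma adjusted p of 0.0433). Ackr3, the second receptor for CXCL12, was called at 0.85 ± 0.14 (limma adjusted p of 0.0383), while the ligand gene Cxcl12 stood at -1.0 ± 0.24 (adjusted p of 0.0933). The hedgehog receptor and target gene Ptch1 was at 1.10 ± 0.36 (adjusted p of 0.191), and none of 12 tested hedgehog pathway genes was called. The visceral and primitive endoderm list was also higher on day 5, with 18 of 23 genes up, 1 of them called, and a summed signal of 26030 to 30860 on day 5 against 16350 with dox and 15250 without dox on day 4. Its part in the day values of Sox17, Hhex and Cer1 was not tested. Of 14 pluripotency genes, 10 were higher on day 5 (median 0.44, 0 called higher and 1 lower). Of 20 BMP pathway genes, 16 were higher (median 0.38, 1 called). The definitive endoderm and anterior streak list split into 12 higher and 10 lower, and primitive streak and nascent mesoderm into 7 higher and 10 lower.

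More of the 10 genes were called between replicate numbers than between dox and no dox. Replicate 1 minus replicate 2 was estimated within each line with dox accounted for. In the knockdown line 3 of the 10 genes were called, where 7.55% of all genes were called. Of these 3, Cer1 lay below the filter on dim genes on both replicate 2 arrays and on the replicate 1 control. For the overexpression line the count was 5, where 13.7% of all genes were called. There all 10 were higher in replicate 1, with a median log2 difference of 0.55 against -0.002 over all genes. Median centring in place of quantile normalization turned Hhex and Shh to -0.105 and -0.012, and moved the median of all genes to -0.117. In the knockdown line 7 were higher and 3 lower, with a median of 0.27 against 0.01.

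Gsc was 1.49 ± 0.24 higher in replicate 1 in the knockdown line (log2, SE; limma adjusted p of 0.0181) and 1.62 ± 0.24 higher in the overexpression line (limma adjusted p of 0.00985). Cer1 was 1.11 ± 0.25 higher (limma adjusted p of 0.0442) and 1.76 ± 0.25 higher (limma adjusted p of 0.00862). In the levels given above, both replicate 1 arrays of each gene lay above both replicate 2 arrays in each line. In the knockdown line that was so for 5 of the 10 genes, against 28.8% of all genes, and the reverse for 3, against 27.3%. In the overexpression line it was so for 7, against 32.4%, and the reverse for 0, against 34.5%. Foxa2 was 0.66 ± 0.18 higher in replicate 1 in the knockdown line (limma adjusted p of 0.0667) and 1.16 ± 0.18 higher in the overexpression line (limma adjusted p of 0.0101). Chrd followed at 0.30 ± 0.09 (limma adjusted p of 0.102) and 0.66 ± 0.09 (limma adjusted p of 0.00881), and Cxcr4 at 0.24 ± 0.13 (not called) and 0.53 ± 0.13 (limma adjusted p of 0.0362). These comparisons rest on 2 arrays against 2, 1 with dox and 1 without dox for each replicate number. The spread in this fit is how far the dox differences vary, and it holds no repeats of a replicate number. If the 2 arrays share a culture run, which the labels do not say, the p-values count 1 unit as 2. Every call of Gsc, Cer1, Foxa2, Chrd and Cxcr4 in the overexpression line ended when any 1 of its 4 day 5 arrays was left out (limma adjusted p of 0.0557 to 0.254), and that of Cxcr4 also without either day 4 array (0.0667). In the knockdown line Gsc was no longer called without either replicate 1 array (0.0567 without the control and 0.148 without the dox array), and Cer1 without any 1 of the 4 arrays (0.103 to 0.262) or any 1 of the 4 day 5 arrays of the other line (0.0589 to 0.0904). Foxa2 was called there without the replicate 1 control (0.0346).

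Chrd had a log2 level of 8.18, 7.79 and 7.81 with dox against 8.11, 7.90 and 7.73 without dox in the knockdown line. Overexpression-line levels were 8.50 and 7.94 with dox against 8.72 and 7.96 without dox on day 5, and 8.02 against 7.97 on day 4. Replicate 1 was thus the highest array of each group that held one. Noto, the other node gene, was at 7.61 and 7.39 with dox against 7.53 and 7.25 without dox on day 5 of the overexpression line, and 7.10 against 7.31 on day 4. Both replicate 1 arrays of Noto lay above both of replicate 2 on day 5, as for Chrd. Its replicate differences were 0.34 ± 0.15 in the knockdown line and 0.25 ± 0.15 in the overexpression line, neither of them called.

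Sox17 was the one gene of the set called in the other direction. In the knockdown line it was -0.86 ± 0.16 in replicate 1 against replicate 2 (limma adjusted p of 0.0274). The overexpression line gave 0.57 ± 0.16 (limma adjusted p of 0.0606). The knockdown-line replicate 2 arrays, at 7.56 with dox and 8.08 without dox, lay above the other 4 of that line, which were at 6.87 to 7.0. The difference between the lines, chosen after these values were seen, was -1.43 ± 0.23 (limma adjusted p of 0.0602), where 0.602% of all genes were called. The knockdown-line call of Sox17 ended without either replicate 1 array (limma adjusted p of 0.202 without the control and 0.152 without the dox array), without the replicate 2 control (0.141), and without either day 5 replicate 2 array of the other line (0.0659). The overexpression-line value of Sox17 passed without any 1 of the knockdown-line arrays of replicates 2 and 3 (0.0348 to 0.0364).

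The companion lists moved with the replicate number as well. Replicate 1 of the knockdown line had lower levels of 15 of the 23 tested genes of visceral and primitive endoderm (called), with a median of -0.88, and 0 were called higher. Among them were Cubn, an endocytic receptor, at -3.06 ± 0.18, Dab2, an endocytic adaptor, at -2.14 ± 0.14 and Sox7, an HMG-box factor of that layer, at -2.08 ± 0.16, each called (limma adjusted p of 0.00174, 0.00174 and 0.00227). The overexpression line had 7 called lower and 0 higher, with Cubn at -1.46 ± 0.18 and Sox7 at -1.06 ± 0.16 (limma adjusted p of 0.006 and 0.00996). Sox17 thus stood with Sox7 in the knockdown line and opposite to it in the overexpression line. Of 22 genes on the wider list of definitive endoderm and anterior streak, the knockdown line had 9 called higher and 2 lower, and the overexpression line 10 higher and 1 lower. Mixl1 was 2.69 ± 0.24 and 0.92 ± 0.24 higher, Eomes 1.70 ± 0.17 and 0.84 ± 0.17 higher, and all 4 differences were called (limma adjusted p of 0.00363, 0.048, 0.00408 and 0.0237). Otx2, a factor of anterior endoderm and epiblast, was 0.10 ± 0.12 in the knockdown line and 1.21 ± 0.12 in the overexpression line (limma adjusted p of 0.641 and 0.00355).

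**Figure D3:**
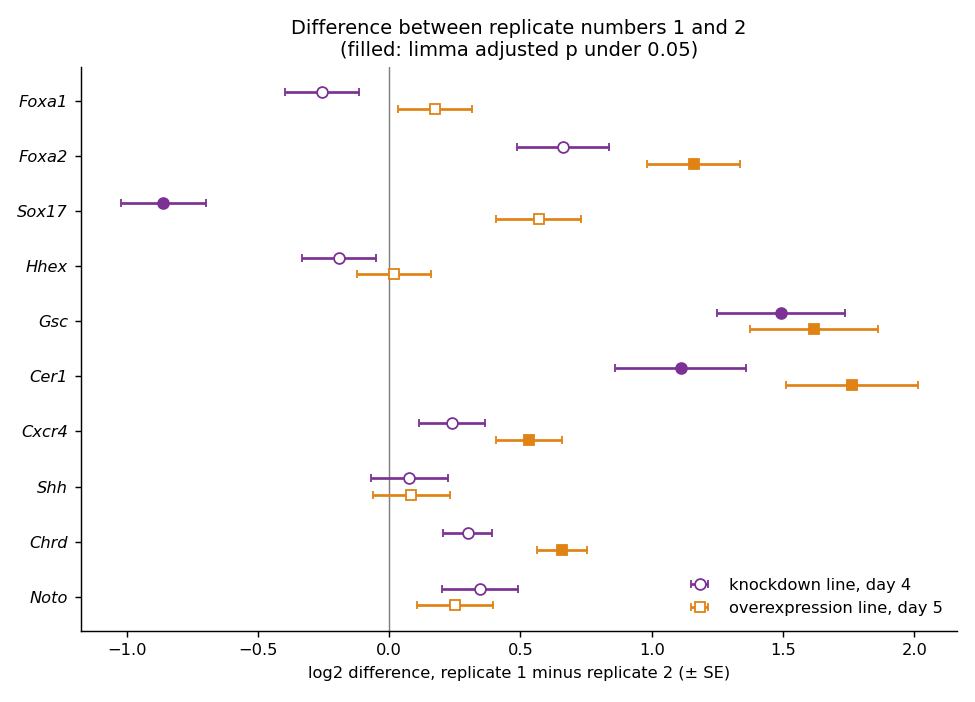
Log2 difference of replicate 1 minus replicate 2 (x axis) for each of the 10 genes down the page, in the knockdown line (circles, upper) and the overexpression line (squares, lower). Bars are standard errors, and filled points were called at an adjusted p under 0.05. Gsc and Cer1 lie well above 0 in both lines, and Sox17 lies below 0 in the knockdown line (-0.86) and above 0 in the overexpression line (0.57).

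Pathway partners of the ligands and antagonists were read in the same contrast. Ptch1 was lower in replicate 1 by -0.99 ± 0.16 in the knockdown line and -0.76 ± 0.16 in the overexpression line (limma adjusted p of 0.0161 and 0.0248), while Shh itself was at 0.08 ± 0.15 in each line. Of 12 tested hedgehog pathway genes, 2 were called in the knockdown line and 6 in the overexpression line, all of them lower. Of 20 BMP pathway genes, 3 were called higher and 0 lower in the knockdown line. In the other line 1 was higher and 6 lower, and there Bmp4 was at -1.22 ± 0.16 (limma adjusted p of 0.00663) and Chrd, its extracellular antagonist, was higher. Of 16 Nodal pathway genes, 0 were called in the knockdown line, and 2 higher and 4 lower in the overexpression line. Cxcl12 was 0.70 ± 0.09 higher in replicate 1 in the knockdown line (limma adjusted p of 0.0109) and at 0.04 ± 0.09 in the overexpression line. Counts over the other lists were 6 higher and 1 lower, then 4 higher and 2 lower, of 17 genes of primitive streak and nascent mesoderm. They were 0 higher and 4 lower, then 0 higher and 8 lower, of 14 pluripotency genes.

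Deviations within groups were taken over the 10 arrays that had a replicate in their group (the day 4 overexpression pair left out). They hold the replicate differences given above, so they are no separate evidence of them. Pearson's r was 0.951 between Gsc and Cer1, 0.928 between Foxa2 and Gsc, 0.958 between Foxa2 and Cer1, 0.938 between Foxa2 and Chrd and 0.942 between Cer1 and Cxcr4. Between Sox17 and Gsc it was -0.131, and between Sox17 and Foxa1 it was 0.724. Between Shh and Gsc it was 0.102. Noto, not called between replicate numbers, was at 0.801 with Cer1, 0.708 with Foxa2, 0.688 with Gsc and -0.601 with Hhex. These values describe arrays that share replicate numbers and carry no test.

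Over all 12 arrays, the 2 other genes whose levels ran closest to each member were found among 14762 candidates. The highest r was 0.99, between Cxcr4 and Plxna2, a semaphorin receptor gene. Gsc ran closest to Lbh (r = 0.983), Cer1 to Lrig3 (0.983), Foxa2 to Sec63 (0.975), Sox17 to Egflam (0.964), Hhex to Frat1 (0.964) and Chrd to Tmem98 (0.963). Noto ran closest to Ndufa11 (0.94), Shh to Vps26c and Chmp5 (0.937 each) and Foxa1 to Chmp3 (0.912). The second genes were Cpxm2 for Cxcr4, Fam89b for Gsc, Rcn1 for Cer1, Ripk4 for Foxa2, Plod3 for Sox17, Cpm for Hhex, Ndufa9 for Chrd, Mfap5 for Noto and Pdia3 for Foxa1. The 12 arrays share 2 lines and 2 days, so differences between lines enter each r.

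**Figure D4:**
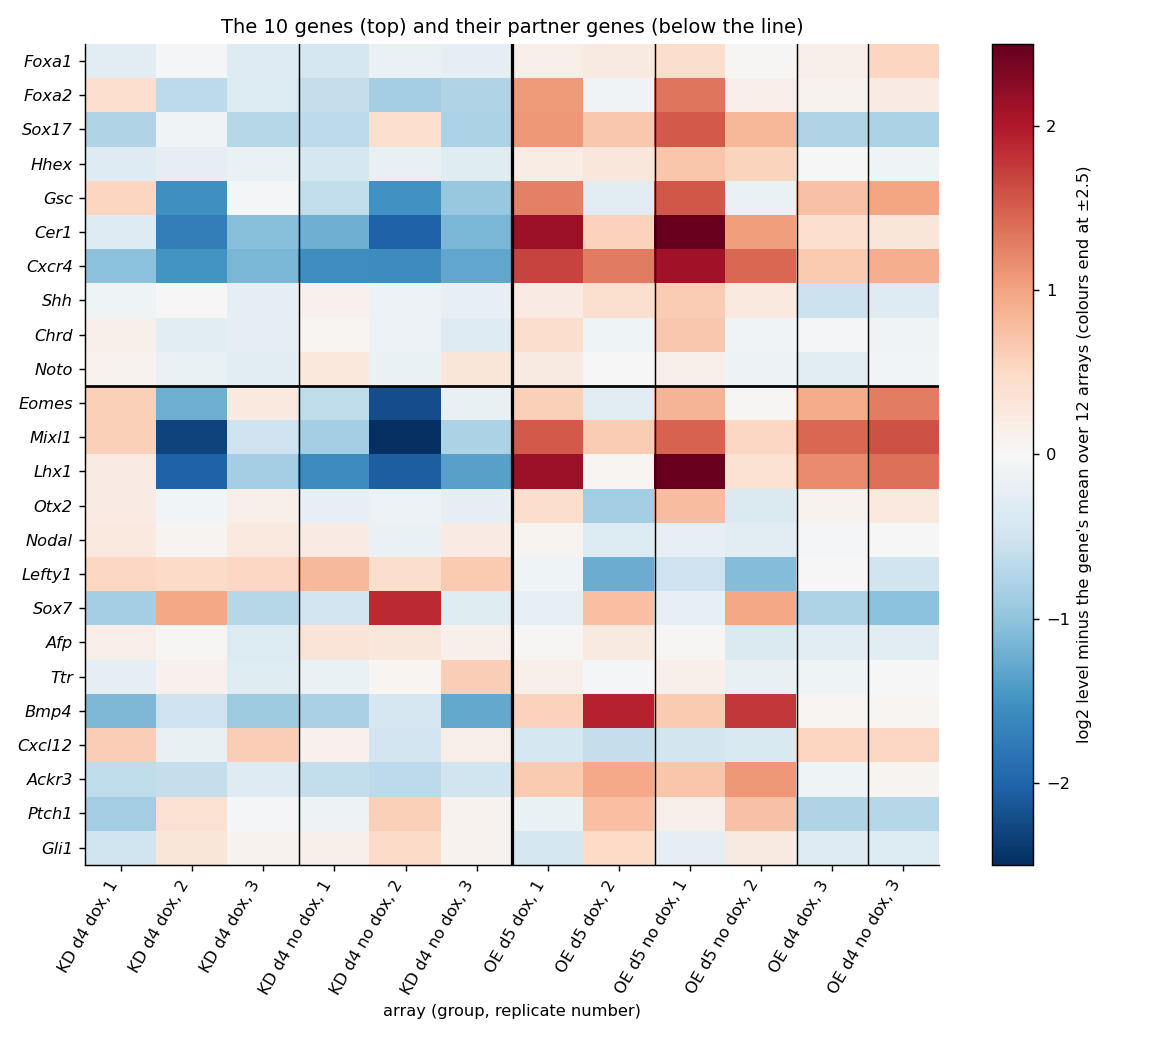
Log2 level of the 10 genes and, below the line, 14 partner genes on the 12 arrays along the x axis (KD, knockdown; OE, overexpression), as the difference from each gene's mean over the arrays. Red is higher and blue lower. The overexpression-line columns are all higher for Cxcr4 and Cer1. For Gsc the replicate 2 columns of that line, at 8.06 with dox and 8.15 without dox, lie below the gene's mean of 8.32. The other Gsc columns of that line are higher than the knockdown-line ones. Within groups the replicate 1 columns of Gsc and Cer1 are higher than those of replicate 2.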

How the data were processed

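Probe set values of 12 arrays were used. Per the labels' protocols, 1 µg of total RNA was labelled with the Affymetrix Whole Transcript sense-target protocol. The values the authors deposited are intensities on a linear scale, with summarization and normalization not given in the sources used here. Means per array were 677.3 to 696.6 and medians 145.3 to 182.2. Intensities were taken as log2(intensity + 1), which lowers the differences of dim genes slightly. Since log2 medians spanned 0.324, over a limit of 0.1, the values were quantile normalized over 35512 probe sets. Of these, 21789 named 1 gene, 1621 several and 12102 none, and 21698 matched RefSeq (GRCm38.p6). The brightest probe set stood for a gene, and genes with a mean below the 20th percentile were not tested.

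A linear model was fitted with limma 3.58.1 in R 4.3.3 (lmFit, eBayes) to all 12 arrays. It had a baseline per line and day, 1 dox effect per line and no replicate block, with 7 residual and 3.5 prior degrees of freedom. The replicate differences came from a fit with 1 baseline per replicate number and line (4 residual and 3.07 prior degrees of freedom). Genes were called at a Benjamini-Hochberg adjusted p under 0.05 over 15950 genes. The steps were tested on simulated data. Exact permutation tests were two-sided. The 10 genes and the companion lists were chosen with earlier results of these data known. Genes named from the lists are direct partners and up to 3 with the largest difference per list and contrast. The number of arrays limits the precision.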

Additional observations from a re-analysis of the deposited data

Results flagged for a closer look

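Foxa2 and Cxcr4 moved in opposite directions with dox in the 2 lines, higher in 3 of 3 knockdown pairs and lower in 3 of 3 overexpression pairs. The difference, knockdown minus overexpression, was 0.755 for Foxa2 (pair differences of 1.00, 0.19 and 0.40 against -0.28, -0.26 and -0.13). It was 0.527 for Cxcr4 (0.53, 0.08 and 0.15 against -0.41, -0.14 and -0.26). The tests of these differences did not pass (limma adjusted p of 0.9995 for both), and over the alternatives the adjusted p ran from 0.499 to 1 for Foxa2 and from 0.51 to 1 for Cxcr4.

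Sox17 was lower in replicate 1 than in replicate 2 in both knockdown-line groups and higher in both day 5 overexpression-line groups. The difference between the lines was -1.431 on the log2 scale, with a limma adjusted p of 0.0602 and a range of 0.00261 to 0.316 over the alternatives.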

How the results depend on the processing

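No dox effect on any of the 10 genes was called under any alternative run (lowest adjusted p 0.306 in the knockdown line and 0.0861 in the overexpression line). The equal replicate numbers were not taken as pairs in the main fit, since the labels name no pairs. Dox and control deviations of equal number correlated at 0.602, 0.438 and 0.051 in the knockdown line (0.785 on day 5 of the other). Between replicates 1 and 2 of the knockdown line they correlated at -0.502 and -0.477, which centring on group means favours in advance. Without a replicate block, the main fit holds replicate differences in its standard errors. With the replicate block, calls for dox stayed at 1, 1 and 0 (knockdown, overexpression, difference), while unadjusted p under 0.05 was reached by 1941, 572 and 1384 genes, against 599, 149 and 340. Among them were 3 of the 10 genes in the knockdown line (Foxa2, Gsc and Cxcr4, unadjusted p of 0.00764, 0.0107 and 0.0404; 12.2% of all genes), 1 in the overexpression line (Cxcr4, 0.0325; 3.59%) and 4 for the difference (Foxa2, Cxcr4, Gsc and Cer1, 0.00734, 0.00807, 0.0156 and 0.0249; 8.68%).

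The count of genes called for day, 89, was 33 after median centring, 27 without the filter, 170 above the median level, 2567 with array weights and 19 with that line alone. The count for the fitted line difference on day 4, 49, whose alternatives were chosen after seeing the data, was 30 without quantile normalization, 29 without the filter and 1170 with array weights. The count for overexpression dox, 1, was 201 with array weights and 0 with that line or day 5 alone. The count for knockdown dox, 1, was 0 with that line alone. Counts between replicates, 1205 (knockdown) and 2179 (overexpression), were 739 and 1417 without the filter. The overexpression split of 893 higher and 1286 lower became 429 and 2284 after median centring, and the knockdown split of 636 and 569 became 467 and 646 without quantile normalization. With 1 array left out, counts ran from 0 to 148 for day, 0 to 80 for line, 0 to 1 for overexpression dox, 70 to 1903 and 14 to 3240 between replicates. The call of Shh for day was also lost without the filter (0.0596) and with that line alone (0.0985), that of Cer1 between knockdown replicates without quantile normalization (0.0507), with pseudocount 32 (0.0745) and without the filter (0.0693), and that of Cxcr4 between overexpression replicates without quantile normalization (0.0784), after median centring (0.214) and without the filter (0.0589). Calls were gained for Sox17 between overexpression replicates without quantile normalization (0.0301) and with pseudocount 32 (0.046), for Foxa2 between knockdown replicates after median centring (0.025) and above the median level (0.0409), and with array weights for Hhex (0.00907) and Cxcr4 (0.0039) by day and Foxa1 (0.00524), Gsc (0.0433) and Cer1 (0.0472) by line. Under the filter at the median level 4 of the 10 genes were left.

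Directions turned as follows (log2), and the cause was not tested. Without quantile normalization, knockdown dox gave -0.04 for Foxa1, -0.036 for Hhex and -0.076 for Chrd, the difference of dox effects -0.079 for Sox17, -0.001 for Shh and -0.031 for Chrd, and the difference of replicate effects -0.112 for Noto. After median centring, overexpression replicates gave -0.105 for Hhex and -0.012 for Shh, and the difference of replicate effects 0.073 for Shh. With array weights, knockdown dox gave -0.046 for Chrd, overexpression dox 0.011 for Hhex, 0.014 for Chrd and -0.149 for Noto, and the difference -0.078 for Sox17 and -0.06 for Chrd. With 1 array left out, the ranges that crossed 0 were, for knockdown dox, Foxa1 -0.016 to 0.129, Sox17 -0.4 to 0.204, Hhex -0.006 to 0.133, Shh -0.109 to 0.052 and Chrd -0.115 to 0.108. For overexpression dox they were Foxa2 -0.546 to 0.122, Sox17 -0.366 to 0.042, Gsc -0.703 to 0.279, Cer1 -0.883 to 0.233, Chrd -0.258 to 0.174 and Noto -0.104 to 0.113. For the difference they were Sox17 -0.218 to 0.399 and Chrd -0.162 to 0.27, for line Sox17 -0.055 to 0.549 and Chrd -0.224 to 0.005, and for day Foxa1 -0.302 to 0.031 and Gsc -0.627 to 0.109. Between replicates they were Shh -0.058 to 0.211 (knockdown), and Foxa1 -0.085 to 0.431, Hhex -0.197 to 0.234 and Shh -0.161 to 0.329 (overexpression). For the difference of replicate effects, whose alternatives were chosen after seeing the data, they were Hhex -0.425 to 0.006, Gsc -0.652 to 0.395, Shh -0.252 to 0.238 and Noto -0.089 to 0.279.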
